A study of Homo sapiens with 6 samples.

Results

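The glutathione peroxidase genes GPX1, GPX2, GPX3, GPX4, GPX7 and GPX8 were followed in ARPE-19 cells, a long-established line of human retinal pigment epithelium. They are 6 of 18132 genes with a probe set on the array, and were found by taking every probe set whose single platform gene symbol was one of these names. This gave 10 probe sets: 2 each for GPX1, GPX3, GPX4 and GPX8, and 1 each for GPX2 and GPX7. By the treatment protocol cells were transfected with GFP at 90% confluence, and 48 h afterwards one group was exposed for 3 h to glucose oxidase at 10 mU/ml while the control group, labelled 0 h, was not. Each group has 3 arrays. Glucose oxidase makes hydrogen peroxide from the glucose of the medium, and the comparison asks which transcripts differ after that exposure. The sample descriptions of the 3 h arrays name another construct, GFP with alpha satellite, than the treatment protocol and the design text do, so treatment and transfected construct cannot be told apart. Whether the control cells were kept for a matching time without enzyme is not clear from the labels. These speak of triplicates and do not say that they were separate cultures, so p-values measure only the spread between these samples, which may be technical.

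Glutathione peroxidases reduce hydrogen peroxide and organic hydroperoxides, most of them with glutathione as the electron donor. The catalytic residue is selenocysteine in human GPX1, GPX2, GPX3 and GPX4 and cysteine in GPX7 and GPX8, which lie in the endoplasmic reticulum. The retinal pigment epithelium takes up the lipid-rich tips of photoreceptors and works under light and high oxygen, so peroxide removal is a standing task of this tissue.

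A call by itself was common in these data: of 29576 tested probe sets, 51.4% passed an adjusted p of 0.05 (limma), made up of 25.6% higher and 25.8% lower at 3 h. Controls of RNA and labelling also differed between the groups. For actin, the 5′ probe set minus the 3′ one stood at -2.06 ± 0.07 at 0 h and -1.20 ± 0.06 at 3 h, and for GAPDH at -0.39 ± 0.05 and -0.13 ± 0.04 (log2, mean ± SD, n = 3). The two-sided exact permutation p was 0.1 for each, the smallest that 3 against 3 arrays allow. Each of the 24 poly-A spike probe sets and 17 of 18 hybridization controls read lower on all of the 3 h arrays, with median changes of -0.60 and -0.31. The part of these differences in the values of the family was not tested. Of 14 retinal pigment epithelium markers with a probe set, 10 were above the floor for dim signal (a mean log2 value of 4.64, the 40th percentile of all probe sets), among them MITF, OTX2, KRT8 and KRT18. BEST1, TYR, TTR and PMEL, markers of the mature or pigmented tissue, were also above it by their mean over the 6 arrays. Their group means were 4.63 to 5.90, while RPE65, RLBP1, TYRP1 and LRAT were under the floor. Above it too were 3 of 4 endothelium, 2 of 3 blood and 3 of 4 neuron and photoreceptor markers with a probe set. Of 7 fibroblast and mesenchyme markers, 2 were. HBB stood at 5.94 and SNAP25 at 6.42 at 0 h, so passing the floor does not by itself show expression.

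GPX3 was the family member that rose, GPX7 and 1 of the 2 GPX8 probe sets fell, and GPX1, GPX4 and the other GPX8 probe set did not pass the test. GPX3 gained 0.69 on one probe set and 0.21 on the other (log2, 3 h minus 0 h), GPX8 fell by 0.32 on its dimmer probe set and GPX7 fell by 0.28. Of the 10 probe sets, 9 were bright enough to test, covering 5 of the 6 genes. Of these 9, 2 were called higher, 2 lower and 5 not, or 44.4% called against 51.4% of all tested probe sets. Which of these shares is larger depends on the setting: with median centring they were 77.8% and 51.7%, and with a trended and robust variance prior 66.7% and 53.9%. There was no overlap between 0 h and 3 h arrays for 8 of 9 (88.9%), against 60.6% of all tested probe sets. Of these 8, 5 were lower and 3 higher at 3 h, where 30.5% and 30.1% of all tested probe sets were. The median change of the 9 was -0.13 against 0.01 over all tested, and their median size of change was 0.16 against 0.22.

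**Figure D1:**
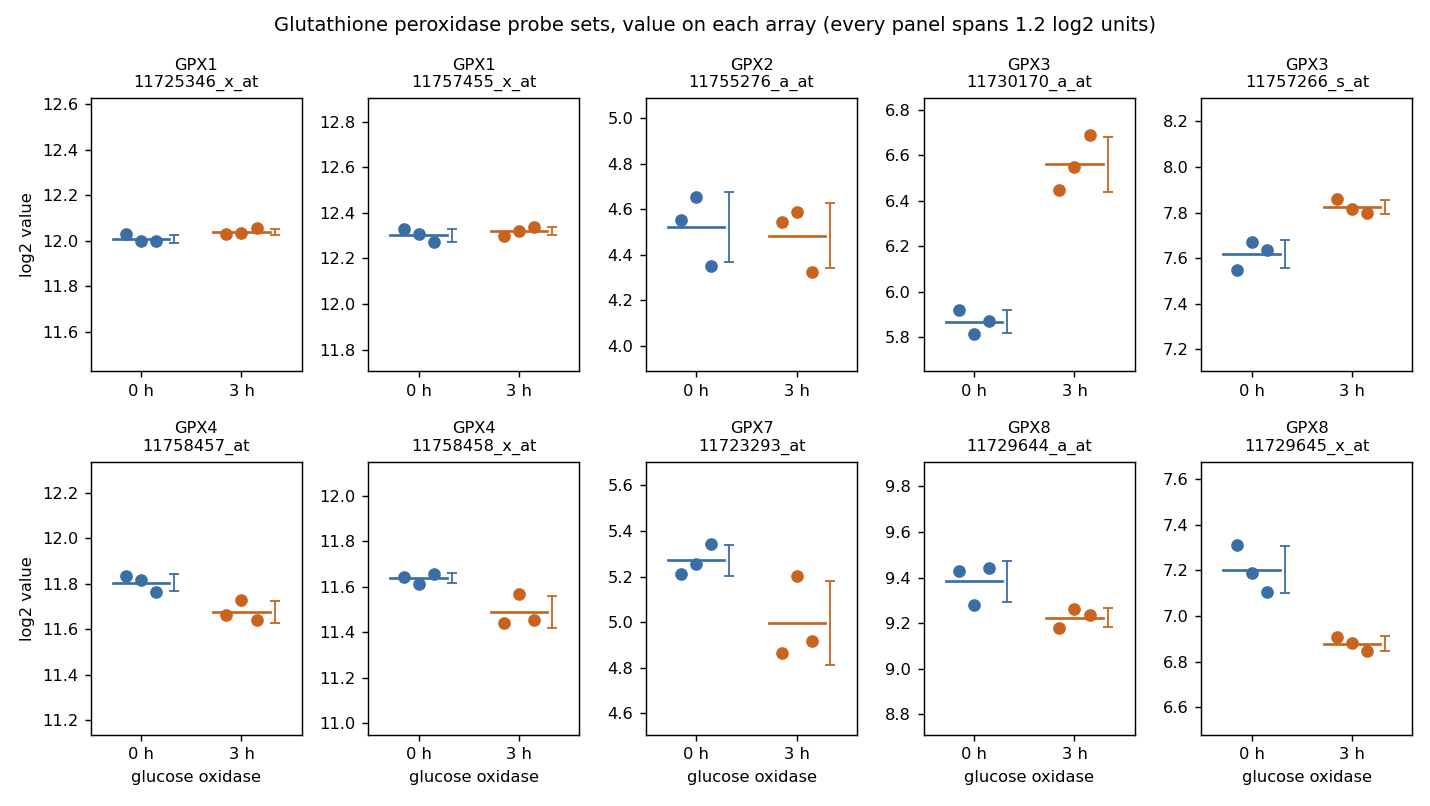
Log2 value of each glutathione peroxidase probe set on each of the 6 arrays (blue, 0 h; orange, 3 h; horizontal bar, group mean; vertical bar, SD over 3 arrays). Every panel spans the same height, so that the step of GPX3 probe set 11730170_a_at from 5.87 to 6.56 can be compared with the nearly level GPX1 panels.

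Promoter sequences of the 3 genes with a called probe set, and of GPX2, are shown because calls within one enzyme family went in both directions and because GPX2 alone held a match to the core bound by NRF2, which drives antioxidant genes. The search covered, for each gene, 300 bases of RefSeq sequence in assembly GRCh38.p14: 250 before the start of the gene model and 50 from that start on. The 250 bases before the start are printed 5′ to 3′ on the gene's strand. Capitals mark matches on either strand. The antioxidant response element core was searched as TGACNNNGC and the E-box of several helix-loop-helix factors as CACGTG. The CCAAT box was searched by its own letters and the GC box as GGGCGG. The AP-1 site, TGANTCA, matched in 0 of the 6 windows. Printed are chr5:151020341-151020590 (plus strand) for GPX3, chr1:52602121-52602370 (plus) for GPX7, chr5:55159921-55160170 (plus) for GPX8 and chr14:64942746-64942995 (minus) for GPX2.
GPX3: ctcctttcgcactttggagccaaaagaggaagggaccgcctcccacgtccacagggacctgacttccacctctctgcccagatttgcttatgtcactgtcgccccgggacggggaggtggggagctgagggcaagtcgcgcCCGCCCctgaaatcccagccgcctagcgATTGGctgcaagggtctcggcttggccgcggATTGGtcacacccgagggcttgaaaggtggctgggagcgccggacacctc
GPX7: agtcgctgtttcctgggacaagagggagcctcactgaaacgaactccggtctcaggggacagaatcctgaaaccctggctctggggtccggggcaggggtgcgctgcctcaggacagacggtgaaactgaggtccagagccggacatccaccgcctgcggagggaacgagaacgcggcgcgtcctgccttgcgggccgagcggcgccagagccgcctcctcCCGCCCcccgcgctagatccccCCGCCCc
GPX8: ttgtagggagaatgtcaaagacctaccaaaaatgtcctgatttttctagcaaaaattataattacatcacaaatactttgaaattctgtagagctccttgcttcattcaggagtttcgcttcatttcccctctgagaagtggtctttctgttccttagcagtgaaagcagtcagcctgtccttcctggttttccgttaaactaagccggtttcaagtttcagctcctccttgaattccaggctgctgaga
GPX2: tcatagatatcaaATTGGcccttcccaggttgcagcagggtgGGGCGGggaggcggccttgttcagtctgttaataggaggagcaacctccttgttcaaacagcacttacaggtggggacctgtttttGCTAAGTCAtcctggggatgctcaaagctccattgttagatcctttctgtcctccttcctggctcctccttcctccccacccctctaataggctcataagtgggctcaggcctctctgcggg

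The windows differed in composition as well as in matches. The GPX8 window was 43.0% G or C with 4 CpG and held no match to any of the 5 motifs, whereas the GPX3 and GPX7 windows were 65.0% and 69.0% G or C with 21 and 30 CpG. Over 13819 protein-coding genes with such a window, the median was 62.7% and 8.75% of windows had a lower share than that of GPX8. CCAAT boxes were found in GPX2, GPX3 and GPX4 (37.1% of all windows), with 2 in GPX3, beginning at positions -81 and -50 (the first base of the gene model being 0), and 3 in GPX4. GC boxes were found in every member but GPX8 (58.5% of all windows). The antioxidant response element core of GPX2 lay on the other strand at positions -122 to -114 (14.6% of all windows hold one), and the only E-box was that of GPX1 (8.95% of all windows). None of the matches overlapped another. A match describes letters only, and whether any factor bound there was not measured.

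**Figure D2:**
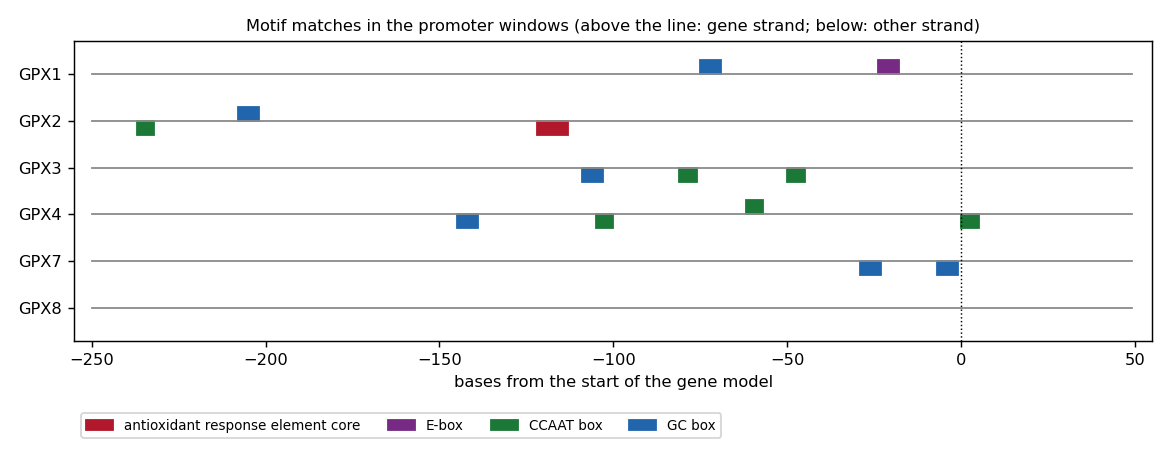
Positions of motif matches in the 300-base promoter windows of the 6 genes, in bases from the start of the gene model (red, antioxidant response element core; purple, E-box; green, CCAAT box; blue, GC box; boxes above a line are on the gene's strand, boxes below on the other, and the palindromic E-box is drawn above). GPX2 alone shows the red box and GPX8 shows no box.

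GPX1, the abundant enzyme of cytosol and mitochondria that reduces hydrogen peroxide, showed the smallest changes. Probe set 11757455_x_at read 12.33, 12.31 and 12.27 on the 0 h arrays and 12.30, 12.32 and 12.34 on the 3 h arrays. These values overlapped. Probe set 11725346_x_at read 12.03, 12.00 and 12.00 at 0 h and 12.03, 12.03 and 12.06 at 3 h, a separation too thin to show at 2 decimals. Neither passed the test: the changes were 0.02 (95% interval -0.11 to 0.14, adjusted p = 0.792) and 0.03 (-0.09 to 0.15, adjusted p = 0.657). With median centring the changes turned to -0.02 and -0.01. By the maker's naming, probe sets ending in _x_at hold probes that may bind other transcripts; GPX1 has the pseudogenes GPX1P1 and GPX1P2, which these probe sets may not tell apart from it.

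GPX4, which reduces phospholipid hydroperoxides within membranes and so restrains ferroptosis, an iron-dependent cell death, was lower on every 3 h array on both of its probe sets. Probe set 11758457_at read 11.83, 11.82 and 11.76 at 0 h and 11.66, 11.73 and 11.64 at 3 h. Probe set 11758458_x_at read 11.64, 11.61 and 11.66 at 0 h and 11.44, 11.57 and 11.46 at 3 h. Replicate 2 at 3 h was the highest of its group on both. The changes of -0.13 (SE 0.06, adjusted p = 0.0972) and -0.15 (SE 0.06, adjusted p = 0.0697) did not pass the threshold. Several alternatives brought them past it: a trended and robust variance prior gave adjusted p = 0.00938 and 0.00593, median centring gave -0.17 and -0.19 (adjusted p = 0.0410 and 0.0319), the mean of both probe sets gave -0.14 (adjusted p = 0.0393), and removing the trend on local gene density, chosen after the data were seen, gave -0.26 and -0.28. Leaving out replicate 2 at 3 h brought 11758458_x_at to -0.19 (adjusted p = 0.0410), and it also passed with the 60th percentile as floor (adjusted p = 0.0414).

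GPX2, the enzyme of gastrointestinal epithelium, was dim. Its probe set 11755276_a_at read 4.56, 4.66 and 4.35 at 0 h and 4.54, 4.59 and 4.32 at 3 h, with a mean under the floor of 4.64, so it was left out of the main test. The groups overlapped, and with no filter the change was -0.04 (95% interval -0.28 to 0.20, adjusted p = 0.825). The gene whose window above holds the antioxidant response element core was thus the one member with too little signal to test.

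GPX3, the secreted enzyme that circulates in plasma, gave the largest change of the family. Probe set 11730170_a_at read 5.92, 5.82 and 5.87 at 0 h and 6.45, 6.55 and 6.69 at 3 h. All 3 h arrays stood above all 0 h arrays, and the gap between the groups was wider than the spread within either. The mean of this probe set at 0 h, 5.87, was below the 5.94 of HBB, so the level alone does not show expression. The rise of 0.69 (SE 0.07, 95% interval 0.52 to 0.86, adjusted p = 0.000212) is 1.61-fold, and 93.3% of all tested probe sets changed by less. It kept its direction and its call in all 16 alternatives in which it could be fitted, from 0.62 to 0.75. The brighter probe set, 11757266_s_at, read 7.55, 7.67 and 7.64 at 0 h and 7.86, 7.82 and 7.80 at 3 h. Its rise of 0.21 (SE 0.06, adjusted p = 0.0192) is 1.16-fold, and 47.5% of all tested probe sets changed by less. That call was lost without replicate 1 at 0 h (0.17, adjusted p = 0.0843), with the trend on gene density removed (0.13, adjusted p = 0.0902) and at a threshold of 0.01.

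The 2 probe sets of GPX3 moved by unequal amounts. Within each array the dimmer read -1.75 ± 0.11 relative to the brighter at 0 h and -1.26 ± 0.15 at 3 h (log2 difference, mean ± SD, n = 3), a shift of 0.48 without overlap. The two-sided exact permutation p was 0.1, the smallest possible, or 0.4 adjusted over the 4 genes with a pair of probe sets. By the maker's naming, _s_at marks probes shared by transcripts of more than 1 gene and _a_at probes shared by transcripts of 1 gene. Where the probes of each set lie along the transcript was not analysed here, so the part of the 5′ to 3′ differences given above in this gap was not tested. For GPX1, GPX4 and GPX8 the corresponding shifts were 0.01, -0.02 and -0.16, and the groups overlapped.

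Both genes of the endoplasmic reticulum enzymes read lower at 3 h. GPX8, a membrane-anchored enzyme of that compartment, had probe set 11729645_x_at at 7.31, 7.19 and 7.11 at 0 h and at 6.91, 6.88 and 6.84 at 3 h. The groups were clear of each other, with the wider spread at 0 h. It fell by 0.32 (SE 0.07, 95% interval -0.48 to -0.17, adjusted p = 0.00478), 1.25-fold. The call held in all 15 alternatives in which the probe set could be fitted (-0.37 to -0.27). Those did not include the removal of shared and cross-hybridizing probe sets, since by its _x_at name its probes may bind other transcripts. The brighter probe set, 11729644_a_at, read 9.43, 9.28 and 9.44 at 0 h and 9.18, 9.26 and 9.23 at 3 h, with replicate 2 at 0 h almost level with the highest 3 h array. Its change of -0.16 (SE 0.07, adjusted p = 0.0755) did not pass, nor did it with shared and cross-hybridizing probe sets removed (adjusted p = 0.0890). It passed without replicate 2 at 0 h (-0.21, adjusted p = 0.0427), with median centring (-0.20, adjusted p = 0.0377) and as the mean of both probe sets (-0.24, adjusted p = 0.00362). It passed too with a trended and robust variance prior (adjusted p = 0.0253) and with the 60th percentile as floor (adjusted p = 0.0473).

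GPX7, the soluble enzyme of the same compartment, was measured by probe set 11723293_at alone, at 5.21, 5.26 and 5.34 at 0 h and 4.87, 5.20 and 4.92 at 3 h. Replicate 2 at 3 h stood almost level with the lowest 0 h array, while the other two 3 h arrays were clearly lower. Every array read below the 5.94 of HBB at 0 h, and the lowest, 4.87, lay near the floor of 4.64. The level alone therefore does not show expression of GPX7. The probe set fell by 0.28 (SE 0.09, 95% interval -0.49 to -0.06, adjusted p = 0.0386), 1.21-fold. This call was the least stable of the 4. It did not survive the omission of any one 0 h array (-0.30, -0.28 and -0.24 without replicates 1, 2 and 3) or of replicate 1 or 3 at 3 h (-0.21 and -0.24), with adjusted p values of 0.0633 to 0.114. The adjusted p was 0.0677 with no filter on dim probe sets, 0.0514 with a trended and robust variance prior and 0.0714 with array weights (-0.22), and the call was lost at a threshold of 0.01 too.

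**Figure D3:**
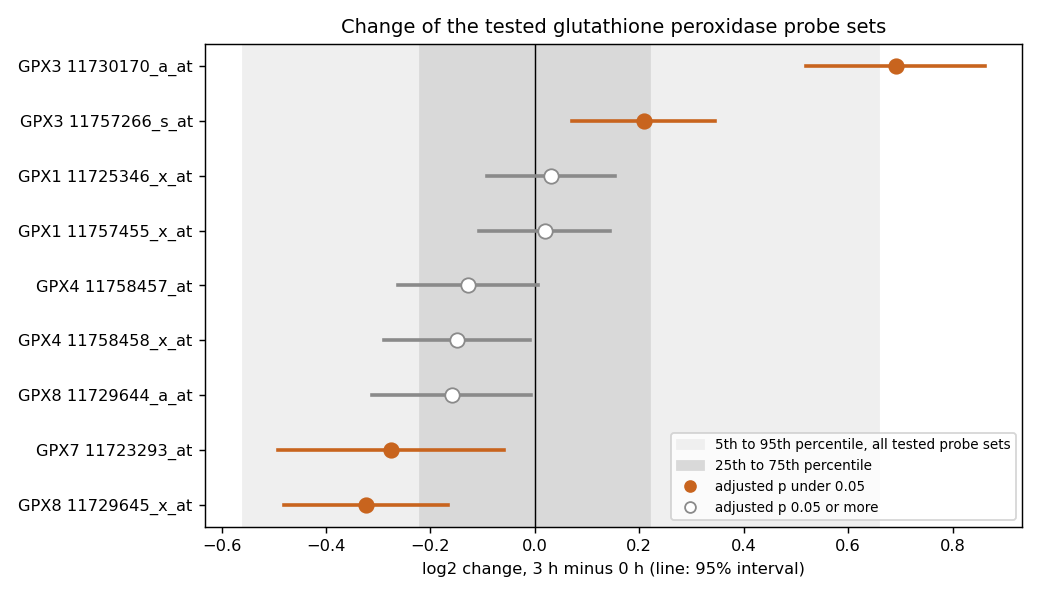
Log2 change (3 h minus 0 h) of the 9 tested glutathione peroxidase probe sets with 95% intervals from limma (orange, adjusted p under 0.05; open, 0.05 or more). Shaded bands give the middle of all tested probe sets, -0.22 to 0.22 for the 25th to 75th percentile and -0.56 to 0.66 for the 5th to 95th; GPX3 11730170_a_at lies outside the wider band.

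Members were also compared with each other within arrays, each by its brightest probe set. Of 10 pairs among the 5 tested genes, 7 had ratios that did not overlap between the groups. Each of the 7 had the smallest possible p (two-sided exact permutation, p = 0.1, or 0.143 adjusted over the 10 pairs). These were all 4 pairs of GPX1 and the pairs of GPX3 with GPX4, GPX7 and GPX8. The share among pairs of other genes was not computed, and 60.6% of all tested probe sets, taken singly, did not overlap. The count is therefore not read as particular to the family. The changes of GPX3 exceeded those of GPX4, GPX7 and GPX8 by 0.34, 0.48 and 0.37 (log2), and the change of GPX1 exceeded that of GPX4 by 0.15. Among GPX4, GPX7 and GPX8 the ratios overlapped and the changes differed by 0.03 to 0.15 in size. With the mean of all probe sets of each gene, GPX4 and GPX8 separated as well (0.10) and the gap between GPX3 and GPX7 widened to 0.72.

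**Figure D4:**
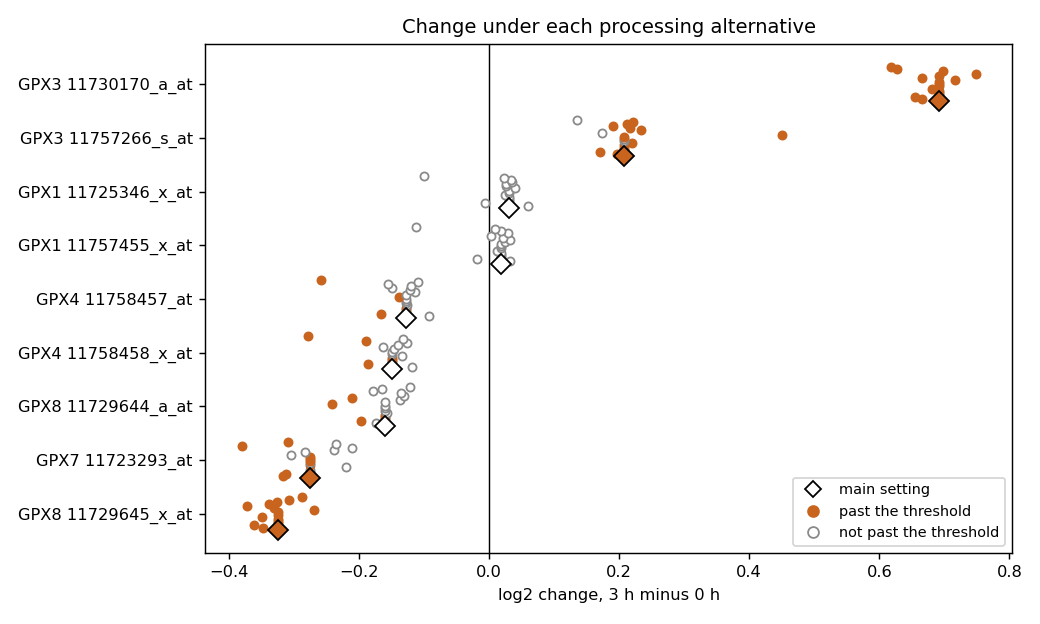
Log2 change (3 h minus 0 h) of each tested probe set under the main setting (diamonds) and under each processing alternative (circles; orange, past the threshold of that setting; open, not past it). GPX3 11730170_a_at and GPX8 11729645_x_at are orange throughout; the circle of GPX3 11757266_s_at near 0.45 and that of GPX8 11729644_a_at at -0.24 are means over both probe sets of the gene.

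Genes whose brightest probe set ran most like that of a member were picked by the root mean square difference of log2 values over the 6 arrays, each gene centred on its own mean, among 11998 genes. For GPX4 they were NDUFS7, a respiratory complex I subunit gene, at 0.00692, and HSF1, the heat shock transcription factor gene, at 0.0133. For GPX3 they were PIP4K2A (0.0132) and VEZF1 (0.0138), and for GPX1 GNPDA1 (0.0102) and LHPP (0.0111). For GPX7 they were ZSWIM3 (0.0256) and TIMELESS (0.0327), and for GPX8 RAB39B (0.0241) and MPDU1 (0.0246). The list describes likeness only.

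Around the family, 85 genes on 6 lists of its pathways were examined, each by its brightest probe set. Of 76 tested, 17 rose and 17 fell, or 44.7% called, against 49.7% of all 12221 genes tested this way (19.9% higher and 29.8% lower). Their median change was -0.03 against -0.04 over all genes.

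Glutathione synthesis and recycling supply the electron donor of most of these enzymes. Of 16 tested genes 3 rose, 3 fell and 10 did not pass (37.5% called, against 49.7% of all genes, median -0.01). SLC3A2, the heavy chain of the cystine importer, rose by 0.45, GGT7 by 0.32 and OPLAH, which opens 5-oxoproline, by 0.26. The glutaredoxin gene GLRX fell by 0.71, CHAC2, which degrades glutathione, by 0.63 and GCLC, the catalytic subunit of the rate-limiting step of synthesis, by 0.21. Calls of OPLAH and GCLC were both lost if replicate 1 or 2 at 0 h, or 1 at 3 h, was omitted, that of OPLAH also without replicate 2 at 3 h, and that of GCLC also without replicate 3 at either time. With quantile normalization and median centring OPLAH stood at 0.24 and 0.22, uncalled, and as a mean over its probe sets GCLC stood at -0.07. Still called, GLRX stood at -0.45 and GGT7 at 0.18 as means over their probe sets, and GLRX at -0.24 with shared and cross-hybridizing probe sets removed. GSR, which regenerates reduced glutathione, stood at 0.08 (adjusted p = 0.440), and SLC7A11, the transporting subunit of the cystine importer, at -0.16 (adjusted p = 0.0623). NADPH, which GSR consumes, is supplied by a further list, of which 3 of 10 tested genes rose and 3 fell (median 0.03). The share called in that list was above the 49.7% of all genes, so calls were common outside it too. The transketolase gene TKT rose by 0.42, the NAD kinase gene NADK by 0.30 and MTHFD1 by 0.19. The mitochondrial transhydrogenase gene NNT fell by 0.36, the malic enzyme gene ME1 by 0.33 and IDH1 by 0.28. Among single arrays left out, MTHFD1 kept its call only without replicate 3 at 0 h, and median centring left it at 0.16, uncalled. With shared and cross-hybridizing probe sets removed, NNT stood at -0.18, uncalled, and IDH1 at 0.03. As means over their probe sets TKT stood at 0.15, NADK at 0.47 and IDH1 at -0.18, all called, and with the trend on gene density removed NADK stood at 0.17, uncalled (adjusted p = 0.0581).

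Other peroxide-removing enzymes were mixed: of 11 genes tested, 2 were called higher, 2 lower and 7 not (36.4% called, against 49.7% of all genes). The peroxiredoxin gene PRDX2 and the sulfiredoxin gene SRXN1 each rose by 0.28. The thioredoxin gene TXN fell by 0.26 and the catalase gene CAT by 0.18, the latter call being lost if replicate 1 or 2 at 0 h, or 2 or 3 at 3 h, was omitted. With the trend on gene density removed, PRDX2 stood at 0.15 (adjusted p = 0.0528) and CAT at -0.10, both uncalled, and SRXN1 at 0.17, still called. PRDX6, which like GPX4 reduces phospholipid hydroperoxides, stood at -0.00 (adjusted p = 0.988), and PRDX4, the peroxiredoxin of the endoplasmic reticulum, at -0.15 (adjusted p = 0.0771).

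Selenocysteine is built on its own transfer RNA and inserted at a recoded stop codon, a step that GPX1, GPX2, GPX3 and GPX4 need. Of 12 tested genes of that machinery 1 rose, 2 fell and 9 did not pass (median -0.07). The share called was below the 49.7% of all genes. SEPSECS, the synthase that completes selenocysteine on the transfer RNA, fell by 0.77 (1.70-fold, adjusted p = 0.000242), and PSTK, the kinase of the step before it, fell by 0.60 (1.52-fold, adjusted p = 0.000327). Both kept their calls in each alternative in which they could be fitted. EIF4A3, an RNA helicase that also binds selenocysteine insertion elements, rose by 0.26. SECISBP2, the protein that reads the insertion element, stood at 0.20 (adjusted p = 0.153), and SEPHS2, which makes the selenium donor, at 0.12 (adjusted p = 0.164).

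Of 13 tested genes of lipid peroxidation and ferroptosis, the process that GPX4 restrains, 1 rose, 4 fell and 8 did not pass (median -0.10). The share called was 38.5%, against 49.7% of all genes. The heme oxygenase gene HMOX1 rose by 0.53. GCH1, which makes tetrahydrobiopterin, fell by 0.63, and SAT1 and NCOA4, the ferritin receptor of autophagy, each fell by 0.31. ACSL4, which loads polyunsaturated fatty acids into phospholipids, stood at -0.12 (adjusted p = 0.169), and AIFM2, which acts beside GPX4 through coenzyme Q, at -0.10 (adjusted p = 0.265).

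Oxidative folding in the endoplasmic reticulum makes the peroxide that GPX7 and GPX8 can consume. Of 15 tested genes 7 rose, 3 fell and 5 did not pass (66.7% called, against 49.7% of all genes; median 0.04). The chaperone gene CALR rose by 0.98 and the sulfhydryl oxidase genes QSOX2 and QSOX1 by 0.72 and 0.62. The disulfide oxidase genes ERO1A and ERO1B fell by 0.39 and 0.31, and VKORC1 fell by 0.27. As a mean over its probe sets CALR rose by 0.64. ERO1B was no longer called if replicate 1 or 2 at 0 h, or 2 at 3 h, was omitted.

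**Figure D5:**
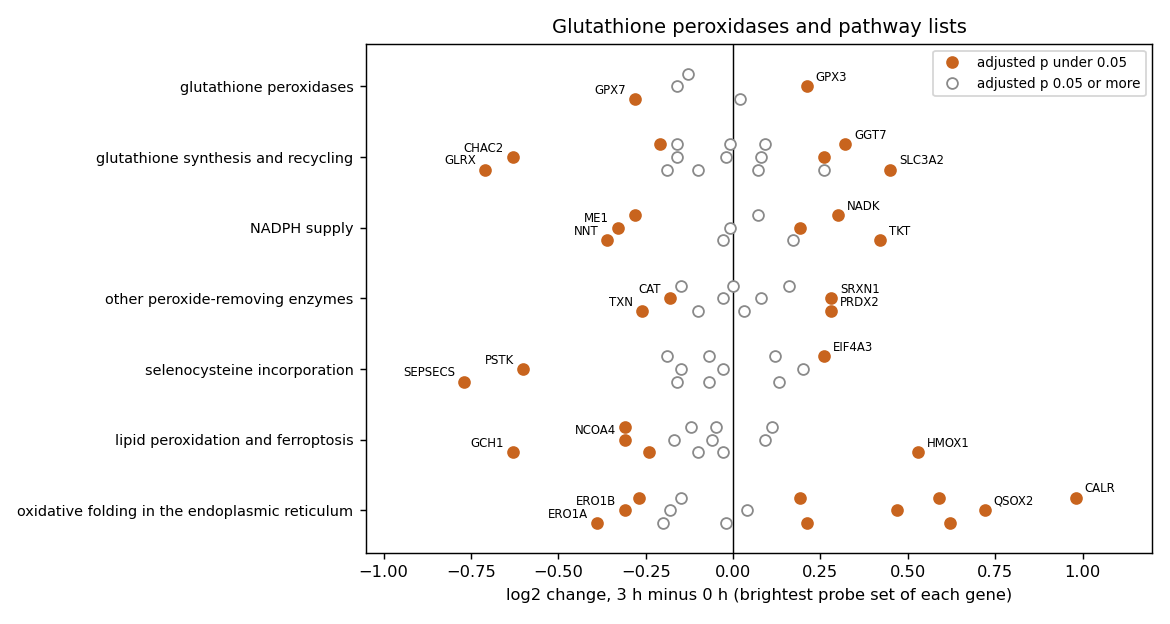
Log2 change (3 h minus 0 h) of each tested gene, by its brightest probe set, for the glutathione peroxidases and the 6 pathway lists (orange, adjusted p under 0.05; open, 0.05 or more; named genes are called ones at either end). By brightest probe set the family lies between -0.28 (GPX7) and 0.21 (GPX3), while SEPSECS at -0.77 and CALR at 0.98 mark the ends of the lists.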

How the data were processed

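RNA from 6 ARPE-19 samples was hybridised to 1 Affymetrix array each after 3′ IVT labelling, per the labels' protocols. Values deposited for 49372 probe sets are on a log2 scale, as their range shows (1.54 to 14.3, array medians 5.30 to 5.34). MAS5 and RMA are named, without a role, in the submitters' processing notes; which of them made the deposited values is not given in the sources used here. Values with nearly equal distributions cannot show a change in total RNA.

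Control probe sets (79) were left out. Symbols came from the platform annotation: 44988 probe sets had 1, 1832 several and 2473 none; identifiers of 44961 matched GRCh38.p14 and 0 symbols changed. Probe sets with a mean above the 40th percentile (log2 4.64) were tested, 3 h minus 0 h, in limma 3.58.1 (lmFit, eBayes; R 4.3.3) with Benjamini-Hochberg adjustment over all 29576 and a threshold of 0.05. A list gene stands by its brightest probe set. "Rose" and "fell" are used of calls only. Single values had exact permutation tests (scipy 1.17.1). Simulated data had the means and SDs of these values with independent normal noise. There, 94 of 100 probe sets changed by 1 and 63 of 100 changed by 0.5 on the log2 scale were called. There were 2 false calls among 29376. Only those few probe sets were changed, whereas 51.4% of tested probe sets were called in the real data, so these rates need not carry over. Promoter windows came from RefSeq's GRCh38.p14 table, in which all 6 genes were matched. Figures used matplotlib 3.10.9. The number of arrays limits the precision.

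All glutathione peroxidase probe sets are named; of each list, up to 3 called genes with the largest rise and the largest fall, the 2 genes nearest in pattern to each tested member (passing over provisional, microRNA and antisense names), and GPX5 and GPX6. Other list genes are named for their role, after their values were seen. The members, lists and tests were chosen with earlier results of these data known. Alternatives covered normalization, centring, the filter, variance moderation, array weights, the replicate block, the threshold, the choice of probe set and leaving out each array; the trend on gene density (protein-coding genes within 500 kb, loess span 0.5) was added after the data were seen.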

Additional observations from a re-analysis of the deposited data

How the results depend on the processing

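The count of 4 glutathione peroxidase probe sets called became 7 with median centring (2 higher, 5 lower, 77.8% against 51.7% of all). It became 6 with a trended and robust variance prior (66.7% against 53.9%). At a threshold of 0.01 it was 2 (22.2% against 35.1%), and with 1 probe set a gene 2 (40% against 51.3%). Removing shared and cross-hybridizing probe sets left 4 to test and 2 called (50% against 49.6%). With gene means 4 of 5 genes were called (80% against 57.1%). Leaving out single arrays gave 2 to 5, with 2 without replicate 1 at 0 h (22.2% against 41.6%) and 5 without replicate 2 at 3 h (55.6% against 46.5%). Over all probe sets 15193 calls became 12294 to 14699 without single arrays, on the same tested probe sets. Calls numbered 6273 with the brightest probe set of each gene, 6099 with gene means and 9594 with the shared and cross-hybridizing ones removed. These last settings test fewer rows. The 34 pathway calls ran from 27 to 37 without single arrays. Pairs of members without overlap went from 7 to 8 with gene means. Replicate numbers did not pair the samples: deviations of same-numbered arrays correlated at -0.01, -0.04 and -0.19. A replicate block left 3 family calls (33.3% against 46.9%), with GPX3 11757266_s_at at an adjusted p of 0.0508, and 13862 calls in all. GPX1 turned to -0.0067 (11725346_x_at) and -0.018 (11757455_x_at) with median centring and to -0.10 and -0.11 with the gene density trend removed. IDH1 turned to 0.030 with shared and cross-hybridizing probe sets removed and SYT1 to 0.062 with gene means. GPX7 lost its call in 9 of 17 alternatives and GPX3 11757266_s_at in 4 of 17. With no filter on dim probe sets OPLAH, GCLC, MTHFD1 and CAT were uncalled (adjusted p of 0.0565 to 0.0903), and without the gene density trend OPLAH, GCLC and SYT1 were (0.13, -0.15 and -0.15). With 3 arrays a group, changes near 0.1 to 0.2 lie at the edge of what could be called, and dim GPX2 was not tested.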

Other observations

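The human family has further genes outside the 6, GPX5 of the epididymis and GPX6 of olfactory tissue. GPX5 read 3.83 ± 0.08 at 0 h and 3.78 ± 0.07 at 3 h (log2, mean ± SD, n = 3) on its brighter probe set, under the floor. GPX6 read 7.23 ± 0.10 and 7.33 ± 0.10 on its brighter probe set, a change of 0.09 (adjusted p = 0.329 in limma).

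Among marker lists, 4 of 10 tested retinal pigment epithelium genes rose and 1 fell (50% called, against 49.7% of all genes), with KRT8 rising by 0.40, KRT18 by 0.34 and MITF, a pigment cell transcription factor gene, by 0.33, and SERPINF1 falling by 0.40. With gene means MITF stood at 0.10, uncalled, and KRT8 at 0.72. Removing the gene density trend left KRT18 at 0.21, and SERPINF1 stood at -0.24 without shared and cross-hybridizing probe sets, both called. Of 7 fibroblast and mesenchyme markers 5 were under the floor and PDGFRB rose by 0.59, or by 0.25 as a mean over its probe sets. The 3 tested endothelium and 2 tested blood markers, with median changes of 0.08 and 0.10, did not pass. Of 3 tested neuron and photoreceptor markers SYT1 fell by 0.22. It was no longer called if any one 0 h array, or replicate 2 at 3 h, was omitted.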
